A study of Homo sapiens with 26 samples.

Results

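The 39 protein-coding HOX genes are the homeobox genes of the HOXA, HOXB, HOXC and HOXD clusters, and they were taken by symbol, HOX with a cluster letter and a paralog number, from a GRCh37 annotation that holds 20136 protein-coding genes. The HOXA cluster held 11 of them on chr7:27132612-27239710, HOXB 10 on chr17:46605888-46806112, HOXC 9 on chr12:54332615-54449814 and HOXD 9 on chr2:176957449-177055635. Each cluster was read from the first to the last base of its HOX genes, with 100 kb on either side as flanks. Peaks that overlap between lists were merged into regions, and 71 of the 87608 H3K27ac regions of the genome and 101 of the 110276 H3K4me1 regions lay in the cluster spans or flanks.

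The peaks come from ChIP-seq in HCT116, a human colorectal carcinoma line with wild-type p53, in a study of chromatin after p53 activation. Nutlin-3a, which keeps MDM2 from binding and degrading p53, was given to wild-type (WT) cells for 1 h or 10 h, and the cells at 0 h received the solvent DMSO. H3K27ac was profiled for all 3 times in WT and for 0 h and 1 h in HCT116_RAD21, a line whose cohesin subunit RAD21 carries an auxin-inducible degron. H3K4me1 was profiled over the same 3 times in WT only. The study describes depletion of RAD21 with the auxin analogue 5-Ph-IAA ahead of Nutlin-3a, the peak names of the degron line carry a depletion tag, and the labels themselves do not state that treatment. Each of the 8 groups had 2 lists, 16 in all, and 10 input samples had no list. H3K27me3, the mark of Polycomb repression, was not measured here, and a peak list says nothing about transcript levels.

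HOX proteins are transcription factors that set positional identity along the body axis. Within a cluster the genes lie in the order in which they are used along that axis, with paralog group 1 at one end for the head and neck region and group 13 at the other for the hindgut, limb tips and genital tract, and the adult gut keeps a regional HOX pattern. Polycomb proteins hold unused HOX genes silent, trithorax proteins such as KMT2A keep used ones active, and TALE-class cofactors such as PBX and MEIS bind DNA together with HOX proteins. H3K27ac marks active promoters and enhancers, and H3K4me1 without H3K27ac is the usual sign of a primed element.

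The 10 H3K27ac lists held 31640 to 49127 peaks and the 6 H3K4me1 lists 84492 to 92943. Read depth is unknown because the lists hold no counts. In 3 of the H3K27ac lists, WT 0 h replicates 1 and 2 and WT 1 h replicate 1, the peak names lack the word input, and their widest peak reached 3.905 to 4.21 kb against 39.57 to 68.41 kb in the 7 other H3K27ac lists. WT at 10 h against 0 h, and the RAD21 line against WT at 0 h, therefore cannot be told apart from this difference in list form, while the 1 h change in the RAD21 line and the H3K4me1 changes each lie within 1 form. All 6 epithelial marker genes (EPCAM, CDH1, KRT8, KRT18, KRT19 and CLDN4) had a promoter H3K27ac peak in every list. Of 4 colon genes only CDX2 did, and CDX1, VIL1 and CDH17 had no H3K27ac peak in any list. Of 8 measured genes of other cell types, the collagen gene COL1A1 had an H3K27ac peak in every list, CD79A in 1 list at percentile 5.9, and the 6 others in none. Each list comes from bulk cells, in which fewer marked cells and less mark per cell cannot be told apart.

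The clusters also hold microRNA genes that target HOX transcripts. The mature miR-196 sequences, from RefSeq on GRCh38.p14, are shown because the 3 genes that give rise to them lie in 3 clusters and differed in promoter mark. Capitals mark the seed, bases 2 to 8, which all 3 share.
hsa-miR-196a-5p of MIR196A1 in HOXB and MIR196A2 in HOXC: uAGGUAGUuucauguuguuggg
hsa-miR-196b-5p of MIR196B in HOXA: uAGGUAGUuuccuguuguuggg
miR-196 is known to direct cleavage of the HOXB8 transcript. MIR196B, between HOXA9 and HOXA10, had a promoter H3K27ac peak in all 10 lists. MIR196A1, between HOXB9 and HOXB13, had one in 3 lists, both WT 10 h lists and RAD21 line 0 h replicate 2, where it was a separate region at percentile 32.6. MIR196A2, between HOXC10 and HOXC9, had none, with H3K4me1 in 2 lists.

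HOX promoters are commonly rich in CpG. The 250 bases before the start of 4 genes, again from RefSeq on GRCh38.p14, are shown with each CG in capitals: HOXA13 and HOXA11 had an H3K27ac peak in all 10 lists, and HOXD13 and HOXD1 had no peak of either mark.
HOXA13, chr7:27200092-27200341, minus strand: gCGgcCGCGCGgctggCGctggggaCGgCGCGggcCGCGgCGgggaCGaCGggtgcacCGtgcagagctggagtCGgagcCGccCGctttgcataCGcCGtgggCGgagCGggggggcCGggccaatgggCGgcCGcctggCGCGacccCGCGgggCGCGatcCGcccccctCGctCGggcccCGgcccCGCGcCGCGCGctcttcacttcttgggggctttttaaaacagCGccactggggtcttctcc
HOXA11, chr7:27185233-27185482, minus strand: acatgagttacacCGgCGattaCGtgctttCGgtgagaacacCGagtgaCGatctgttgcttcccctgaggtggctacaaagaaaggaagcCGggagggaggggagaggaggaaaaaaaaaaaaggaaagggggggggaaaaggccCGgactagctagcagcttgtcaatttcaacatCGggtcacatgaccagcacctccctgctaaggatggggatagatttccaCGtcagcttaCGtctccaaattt
HOXD13, chr2:176092471-176092720, plus strand: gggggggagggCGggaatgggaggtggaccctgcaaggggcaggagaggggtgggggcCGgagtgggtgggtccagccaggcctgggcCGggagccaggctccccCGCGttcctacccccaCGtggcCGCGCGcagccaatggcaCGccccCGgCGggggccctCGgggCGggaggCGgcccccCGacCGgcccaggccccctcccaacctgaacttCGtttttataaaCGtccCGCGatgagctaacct
HOXD1, chr2:176188418-176188667, plus strand: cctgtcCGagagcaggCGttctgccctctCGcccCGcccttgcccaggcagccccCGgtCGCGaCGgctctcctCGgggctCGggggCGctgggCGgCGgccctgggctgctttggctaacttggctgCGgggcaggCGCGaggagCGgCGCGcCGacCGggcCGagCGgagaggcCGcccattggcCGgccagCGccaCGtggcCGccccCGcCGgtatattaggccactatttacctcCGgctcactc
These stretches held 40, 11, 21 and 31 CG. HOXA13 with 40 and HOXA11 with 11 were both acetylated, and the unmarked HOXD13 and HOXD1 lay between them. In the wider GRCh37 window used for peaks, from 1000 bp before to 200 bp after the canonical start, the 39 HOX genes had a median of 61 CG against 59 over 19856 protein-coding genes. The median was 64 (range 29 to 101) in the 13 genes whose canonical start had H3K27ac in all 10 lists and 56 (range 22 to 111) in the 13 with no peak. HOXD9, without a peak, had the most of any HOX gene at 111, HOXD8 beside it was acetylated with 101, and the acetylated HOXB6 had 29.

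Of the 39 HOX genes, 21 had an H3K27ac peak at the promoter in every list, 10 had no peak of either mark in any list, and 8 differed between groups. A promoter here runs from 1000 bp before to 200 bp after any annotated start of the gene. It was called acetylated where both lists of a group had an H3K27ac peak, primed where both had H3K4me1 and neither had H3K27ac, unmarked where no list had either mark, and mixed otherwise. The 21 acetylated genes (53.8%) stood beside 59.8% of all protein-coding genes under the same rule, and the 10 without a peak (25.6%) beside 24.2%. These shares are over all annotated starts, and those at the canonical start alone are given further on. Between clusters the shares differed: 9 of 11 HOXA genes were acetylated throughout, 6 of 10 HOXB, 4 of 9 HOXC and 2 of 9 HOXD.

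In HOXA the genes acetylated in all 10 lists included HOXA3, HOXA4, HOXA6, HOXA7, HOXA9, HOXA10, HOXA11 and HOXA13, the last of which acts in the hindgut and limb tip. In HOXB the acetylated genes were HOXB2, HOXB3, HOXB6, HOXB7, HOXB9 and HOXB13. In HOXC they were HOXC4, HOXC6, HOXC9 and HOXC10, and in HOXD they were HOXD3 and HOXD8. The genes with no peak in any list were HOXA2, HOXA5, HOXB1, HOXC8 and 6 of the 9 HOXD genes, HOXD1, HOXD4, HOXD9, HOXD10, HOXD12 and HOXD13.

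Paralogs, the genes of equal number that descend from the ancestral cluster, did not share a state in most groups. All 3 genes of paralog group 3, all 3 of group 6 and both of group 7 were acetylated throughout, counting any annotated start. At the canonical start alone, 0 genes of group 3, 1 of group 6 and both of group 7 had an H3K27ac peak in all 10 lists. In group 13 HOXA13 and HOXB13 were acetylated, HOXC13 carried H3K4me1 in all 6 lists and HOXD13 had no peak. In group 9 HOXD9 alone of 4 lacked a peak, and in group 5 none of 3 genes was acetylated in every list.

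**Figure D1:**
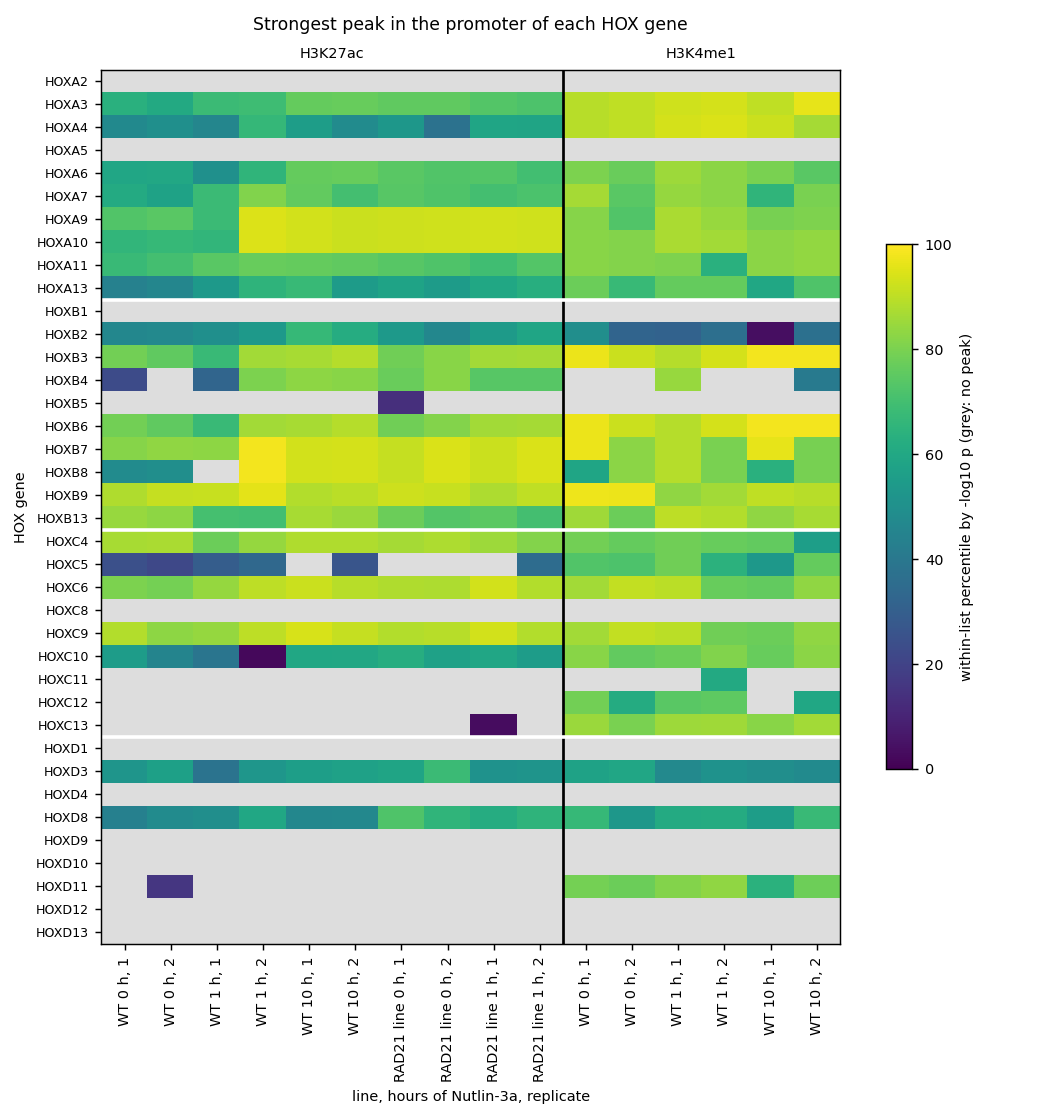
Heat map of the strongest peak in the promoter of 38 HOX genes (rows, ordered by cluster and number), in the 10 H3K27ac and 6 H3K4me1 lists (columns); the colour is the within-list percentile by -log10 p and grey is no peak. HOXA is coloured in all of the rows drawn but those of HOXA2 and HOXA5, and 6 of the 9 HOXD rows are grey throughout.

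By group, 23 of 39 HOX genes (59.0%) were acetylated in each of the 5 groups, against 62.1% of protein-coding genes in WT at 0 h, 62.5% at 1 h and 62.0% at 10 h, and 62.6% in the RAD21 line at 0 h and 63.7% at 1 h. The primed genes numbered 2, 3 and 2 over the 3 WT times, where the background was 8.09%, 7.18% and 8.11%. The unmarked genes numbered 12, 11 and 12, against 26.7%, 25.6% and 26.9%. The equal totals covered different genes, since HOXB4 was acetylated at 10 h and mixed at 0 h while HOXC5 was acetylated at 0 h and mixed at 10 h.

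Many HOX genes have several annotated starts that read into a neighbour, and this sets part of the count. At the canonical start alone, 15, 15 and 19 genes were acetylated in WT in order of time and 18 at either time in the RAD21 line, against 58.7%, 59.4%, 59.1%, 59.6% and 60.9% of protein-coding genes. The WT lists of 0 h and 10 h differ in form, and the larger count at 10 h cannot be told apart from that. HOXA6, primed there in WT at 0 h, had a canonical H3K27ac peak only in the 7 lists whose names carry input. The 13 genes acetylated there in every list (33.3%) stood beside 56.7% of protein-coding genes, and the 13 with no peak at the canonical start (33.3%) beside 28.6%. The 8 genes acetylated in every list by another start were HOXA3, HOXA6, HOXA10, HOXB2, HOXB3, HOXC4, HOXC6 and HOXD3. HOXB2, HOXC4 and HOXD3 had no peak of either mark at the canonical start in any list. HOXA10 had an H3K27ac peak at its canonical start in 8 lists, namely the 7 whose names carry input and 1 of the 3 others.

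Levels were compared as percentiles, the position of a peak by -log10 p among all peaks of its own list, because the deposited fold enrichments differed between the forms of list. At HOXC9, for example, the fold was 5.46 to 6.42 in the 3 lists without input and 26.13 to 72.7 in the 7 others. The gene with the highest mean percentile was HOXA9 in HOXA (86.7), HOXB9 in HOXB (90.7), HOXC9 in HOXC (89.0) and HOXD8 in HOXD (55.8). Paralog group 9 patterns the trunk. The mean of HOXB7 was 90.5, and HOXB7 stood above HOXB9 in 6 of 10 lists. HOXA9 and HOXA10 shared 1 peak in 7 lists, and HOXD3 stood above HOXD8 in 5.

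HOXB9 stood at percentile 88.0 and 91.3 in WT at 0 h, 91.7 and 95.9 at 1 h, 88.6 and 89.5 at 10 h, 92.4 and 91.7 in the RAD21 line at 0 h, and 87.5 and 90.4 at 1 h. HOXC9 stood at 88.5 and 82.9, 84.3 and 89.9, 94.1 and 91.2, 88.5 and 89.2, and 93.1 and 88.5 in the same order. For HOXB9 the WT 1 h and RAD21 0 h lists lay above those of WT 0 h and the other groups overlapped them. For HOXC9 WT 10 h lay above WT 0 h. These percentiles are over all peaks of a list, and the rank test over common regions called none of these separations. Against WT 0 h, HOXB9 changed by 0.3 in WT 1 h (limma adjusted p = 0.1082) and by 0.02 in RAD21 0 h (limma adjusted p = 0.9136). The region at the canonical HOXC9 start changed by 0.22 in WT 10 h (limma adjusted p = 0.4029). HOXD8 stood at 43.4 and 48.2, 49.3 and 59.6, 46.4 and 46.8, 72.3 and 65.4, and 62.0 and 64.9, so all 4 values of the RAD21 line lay above all 6 of WT. By the rank test the lines differed at HOXD8 at 0 h, across list forms (0.6, limma adjusted p = 0.03248). At 1 h they did not (0.19, limma adjusted p = 0.5741).

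HOXA9, a regulator of blood progenitors and of the trunk, and its neighbour HOXA10 moved with the form of the list. HOXA9 stood at percentile 72.9 and 74.6 in WT at 0 h and 68.1 in replicate 1 at 1 h, and at 92.1 to 94.9 in the 7 other lists. Its promoter peak measured 1.56 to 2.28 kb in the first 3 lists and 11.42 to 14.29 kb in the others, where a single peak covered HOXA9 and HOXA10 together. With the list form as a term in the rank test, the RAD21 line minus WT at 0 h went from 0.85 to -0.43 there (limma adjusted p = 0.05432). The cause of the difference was not tested.

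HOXB8, a target of miR-196, followed the same split. Its percentile was 48.2 and 49.3 in WT at 0 h, with no peak in WT 1 h replicate 1, and 91.1 to 98.1 in the 7 other lists. The peak over it measured 0.56 and 0.49 kb in WT at 0 h and 6.31 to 10.12 kb in those 7 lists, where it also covered HOXB7. HOXB4, of the paralog group used in the lower hindbrain, had a peak at 22.8 in 1 of 2 WT 0 h lists and at 32.7 in WT 1 h replicate 1, and at 74.1 to 83.2 in the 7 others. HOXB4 was thus mixed in WT at 0 h and acetylated in the 4 other groups, and HOXB8 was mixed in WT at 1 h and acetylated in the 4 others.

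HOXC5 differed in the other direction. Its H3K27ac peak stood low, at 24.4 and 21.8 in WT at 0 h and 29.3 and 33.7 at 1 h, was present at 26.2 in 1 of 2 lists at 10 h, was absent from both RAD21 lists at 0 h and stood at 35.5 in 1 list at 1 h. H3K4me1 at HOXC5 was present in all 6 WT lists, at 72.9 and 72.0, 78.2 and 64.3, and 53.5 and 76.4 in order of time. MIR615, a microRNA gene inside HOXC5, had the same sequence of states.

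The other genes whose state differed did so through isolated calls. HOXC13, the paralog used in hair and nail, had H3K4me1 in all 6 lists at 79.8 to 86.0 and H3K27ac in 1 list, RAD21 line 1 h replicate 1, at percentile 3.5. HOXD11, used in the forearm and kidney, had H3K4me1 in all 6 lists at 63.8 to 83.3 and H3K27ac only in WT 0 h replicate 2, 121 bp from a start and low in that list. HOXC12 had H3K4me1 at 78.6 and 61.4, 74.6 and 75.3 at 0 h and 1 h, and at 59.7 in 1 of 2 lists at 10 h, with no H3K27ac. HOXC11 had H3K4me1 in WT 1 h replicate 2 at 60.7, and HOXB5 had H3K27ac in RAD21 line 0 h replicate 1 at 13.3. All 3 isolated H3K27ac calls thus ranked in the lowest part of their lists.

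**Figure D2:**
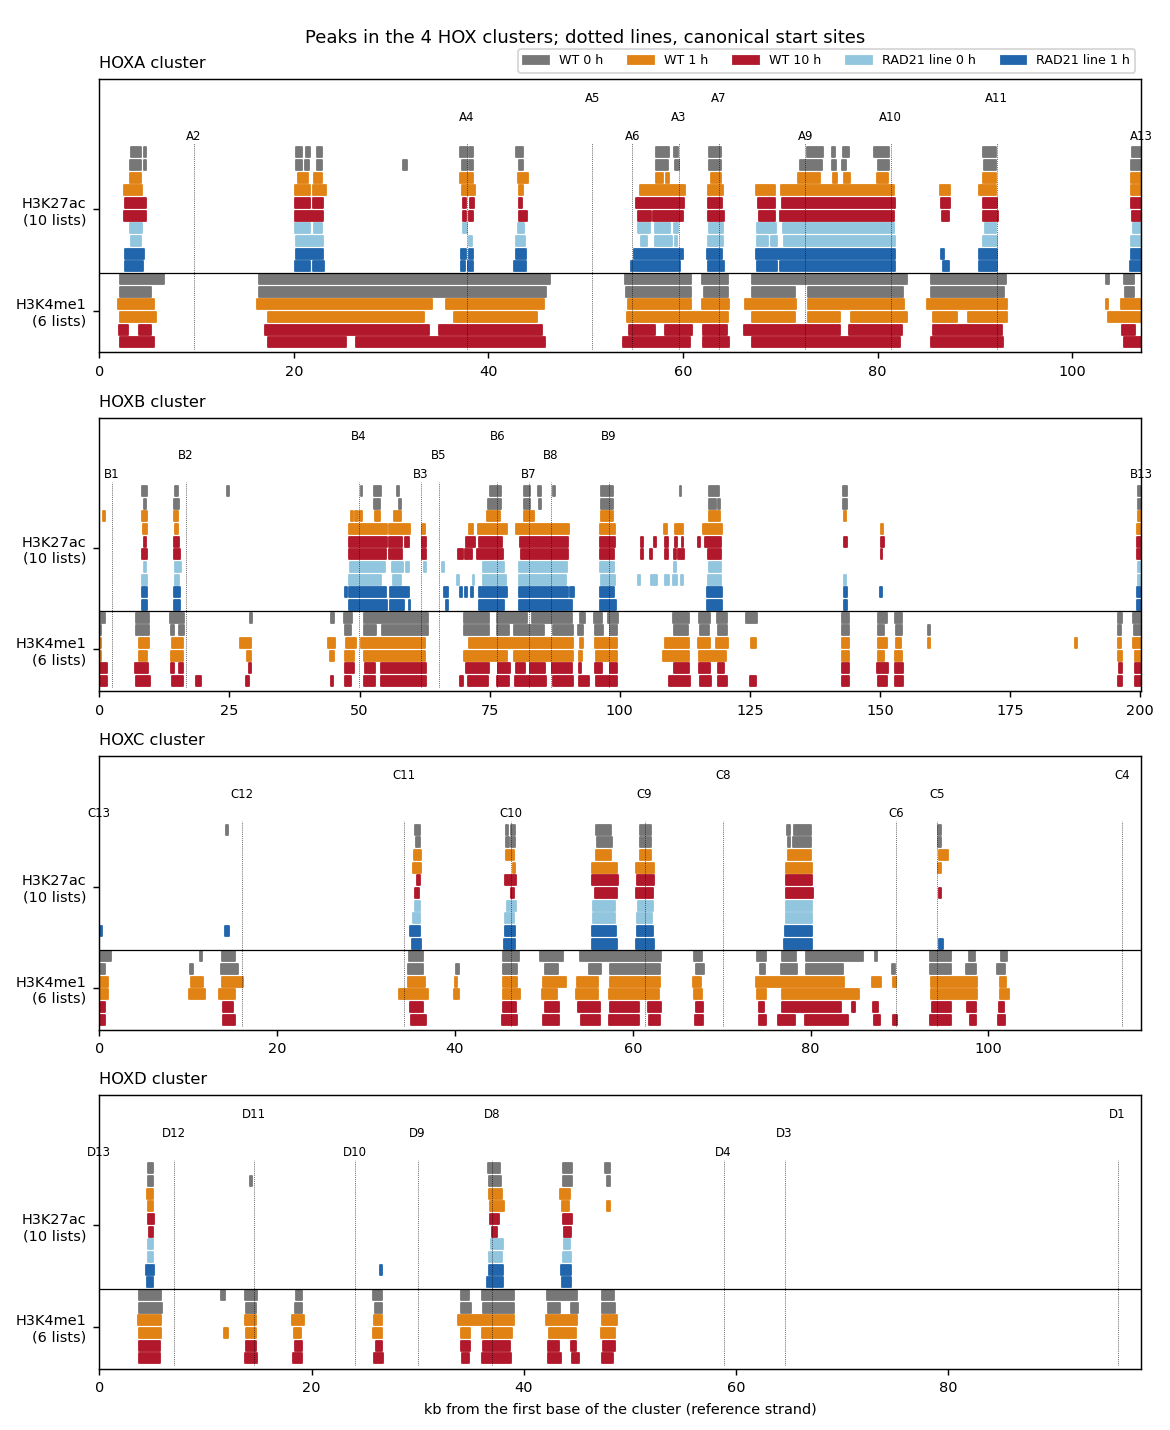
Peaks of the 16 lists (rows, coloured by line and hours of Nutlin-3a; 10 H3K27ac rows above 6 H3K4me1 rows) along each cluster span, with distance in kb from its first base on the x axis and canonical starts of the genes drawn as dotted lines. In HOXA and HOXB the WT 0 h rows and the upper WT 1 h row show short H3K27ac peaks where the rows below show wide ones, and HOXD has no peak where the canonical starts of HOXD4, HOXD3 and HOXD1 lie.

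The 4 spans together measured 522.7 kb. H3K27ac peaks covered 37.14 and 35.95 kb of them in WT at 0 h, 40.44 and 81.81 kb at 1 h, 79.28 and 76.27 kb at 10 h, 65.59 and 69.1 kb in the RAD21 line at 0 h, and 82.42 and 79.45 kb at 1 h. The 3 lists without input covered 35.95 to 40.44 kb and the 7 others 65.59 to 82.42 kb, so the replicates of WT at 1 h fell on either side. As a share of what each list covered in the genome, the HOX spans took 0.1169% to 0.1375% in all 10 lists. Within the RAD21 line, whose lists have 1 form, the length was 67.34 ± 2.482 kb (SD, n = 2) for 0 h and 80.94 ± 2.1 kb (n = 2) for 1 h, and the length covered in the whole genome went with it, at 49.12 and 53.23 Mb, then 62.59 and 64.14 Mb.

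By cluster, HOXB had 12.84 ± 0.9546 kb covered in WT at 0 h and 37.91 ± 1.315 kb at 10 h (SD, n = 2), a difference that crosses the list forms. In the RAD21 line HOXB had 31.57 ± 1.966 kb at 0 h and 36.31 ± 2.065 kb at 1 h. HOXD stayed between 1.875 and 3.125 kb in all group means, 1.91% to 3.18% of its span. An H3K27ac region between HOXD13 and HOXD12, chr2:176961843-176962570, was called in all 10 lists, at percentile 34.2 to 64.7, although neither gene had a promoter peak. The last HOXD peak of either mark ended at chr2:177006239, and no peak covered the rest of the span with HOXD4, MIR10B, HAGLR and HOXD1.

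H3K4me1 covered more of every cluster and varied less between lists. Over the 4 spans it covered 172.96 and 152.43 kb at 0 h, 183.0 and 170.63 kb at 1 h, and 146.6 and 161.35 kb at 10 h, 0.08583% to 0.08829% of what each list covered in the genome. The lists of 0 h overlapped those of both other times, and those of 1 h lay above those of 10 h. HOXA was the most covered cluster, with H3K4me1 on 62.27%, 60.06% and 58.84% of its span in order of time.

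**Figure D3:**
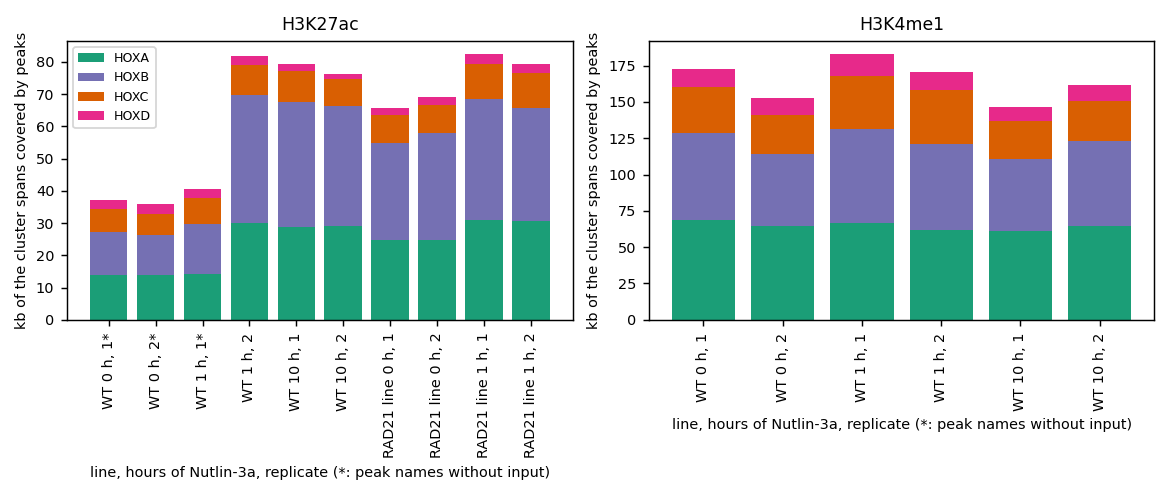
Stacked bars of the kb of the 4 cluster spans covered by peaks in each list, coloured by cluster, with H3K27ac on the left and H3K4me1 on the right; an asterisk marks the 3 lists whose peak names lack input. Those 3 lists reach at most 40.44 kb of H3K27ac and the 7 others at least 65.59 kb.

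HOTAIR in HOXC and HOTTIP at the HOXA13 end, long noncoding RNAs known to act on HOX chromatin, had a promoter H3K27ac peak in every list. So did HOXA-AS2, HOXA-AS3, HOXA11-AS, HOXB-AS1, HOXC-AS1, HOXC-AS3 and HOXD-AS2. HOXB-AS3 was primed in WT at 0 h, mixed at 1 h and acetylated at 10 h and in the RAD21 line, the split by list form again. HAGLR (HOXD-AS1) and MIR10B, in the empty part of HOXD, were unmarked. The HOTAIR start lies in the H3K27ac region 695 bp from a HOXC11 start. The HOXD-AS2 start lies in the region at HOXD3. Rank changes of both regions are given below.

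Of 9 HOX cofactor genes, 6 were acetylated in all 10 lists, among them PBX2, PBX4, MEIS2, MEIS3 and PKNOX1. PBX3 was acetylated at 0 h and 1 h and primed in WT at 10 h. MEIS1, a partner of HOXA9 in blood, was unmarked, and PKNOX2 had no H3K27ac. Of the caudal genes, which activate posterior HOX genes in the embryo, CDX2 was acetylated in every list at percentile 69.5 to 85.2 and CDX1 and CDX4 in none. All 5 Polycomb and trithorax genes (EZH2, EED, SUZ12, KMT2A and MEN1) were acetylated in every list.

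Changes in rank were tested with limma on the regions present in every list of a mark, 18757 for H3K27ac and 60476 for H3K4me1, of which 33 and 68 lay in the HOX spans and flanks. A change is given in units of the normal score of the within-list rank by -log10 p, where 1 unit is 1 standard deviation of all regions, and calls were made at a Benjamini-Hochberg adjusted p under 0.05 over all regions. The test ranks a region among these common regions only. A percentile is over all peaks of its list, whose number differs between lists, so a rank change and a percentile can move apart. The titles number the lists of a group as replicates and the study calls them biological, but the labels do not say whether they come from separate cultures, so the p-values measure only the spread between these lists. The peak names of RAD21 line 0 h replicate 2 carry the tags of a pair of replicates, and whether that list pools libraries is not given in the sources used here. Since all contrasts with WT at 0 h share its lists, their values stand side by side without comparison.

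In WT at 1 h against 0 h, 4 of 33 HOX regions were called higher (12.1%) and 7 lower (21.2%), beside 14.3% and 14.8% of all regions. The median change was 0.057 over HOX regions and -0.007 over all. These shares do not set the HOX regions apart from the background. WT 1 h replicate 1 has the list form of the 0 h lists, and replicate 2 does not. With the list form as a term in the fit, 4 were called higher and 6 lower, beside 2995 and 3022 of all 18757 regions. Only 6 of these HOX regions were among the 11 called without that term. Without WT 1 h replicate 1 the calls numbered 17, and without WT 0 h replicate 1 or 2 they numbered 5 and 4. Ranked by fold enrichment instead, none of the 33 was called, nor was any region of the genome, where 3706 had an unadjusted p under 0.05.

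The HOXB13 promoter, of a homeobox gene active in the distal colon and prostate, was called lower at 1 h (-0.73, SE 0.15, adjusted p = 0.003957, limma). It stood at percentile 84.5 and 83.1 in WT at 0 h, 70.6 and 69.9 at 1 h, 86.9 and 84.8 at 10 h, and 77.7, 73.2, 74.9 and 70.3 in the RAD21 line. Both WT 1 h lists, of either form, lay below all WT lists of the other times. The call held in each of the 4 fits that left out 1 list, with an adjusted p up to 0.0393.

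The falls at HOXC4 and HOXC6, at HOXD3 and near HOXC11 were lost in some of the fits that left out 1 list. The region near HOXC11 covers the start of HOTAIR, and HOXC11 itself had no promoter H3K27ac peak. The HOXD3 region also covers the start of HOXD-AS2, and the canonical HOXD3 start had no peak of either mark. The shared promoter region of HOXC4 and HOXC6 fell by 0.39 (limma adjusted p = 0.02037, called in 2 of 4 fits without 1 list, lost without WT 0 h replicate 1 or 2), and the region at HOXD3 by 0.64 (adjusted p = 0.03116, called in 1 of 4, that without WT 1 h replicate 1). A region 695 bp from HOXC11 fell by 0.94 (limma adjusted p = 0.02225, again called only without WT 1 h replicate 1). The HOXC10 region, named here after its values were seen, was lower as well (-1.45, limma adjusted p = 0.03455). Its promoter peak stood at 55.3 and 45.3 at 0 h, 38.7 and 2.0 at 1 h, and 55.1 to 62.3 in the 6 other lists, so WT 1 h replicate 2 alone reached the bottom of its list.

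The rises at 1 h lay in HOXB and at HOXA7. A region in the flank, chr17:46558859-46565920, 42352 bp from the nearest HOXB1 start, rose by 0.89 (SE 0.16, adjusted p = 0.001396, limma). Its percentile was 50.7 and 52.1 in WT at 0 h, 66.7 and 82.7 at 1 h, 74.2 and 74.1 at 10 h, 63.5 and 62.6 in the RAD21 line at 0 h, and 80.0 and 76.7 at 1 h. In either line every 1 h list lay above every 0 h list, and the call held in all 4 fits without 1 list. Its level in WT 1 h replicate 1 alone, of the same list form as 0 h, gave an adjusted p of 0.002773.

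A region between HOXB9 and HOXB13, chr17:46721795-46725548, 20.0 kb from the HOXB9 start, rose by 0.65 (SE 0.13, adjusted p = 0.003401, limma) and was called in all 4 fits without 1 list. It stood at 80.9 and 82.3 at 0 h, 89.3 and 95.6 at 1 h and 85.5 and 84.2 at 10 h in WT. A region 1477 bp from a HOXB3 start, chr17:46661461-46665599, rose by 1.07 (limma adjusted p = 0.007167), from 25.8 and 18.1 to 33.3 and 65.3. It lost the call without WT 0 h replicate 2. Its percentile split by list form, at 18.1 to 33.3 in the lists without input and 64.9 to 74.3 in all others. The others include WT 1 h replicate 2 and the RAD21 line at 0 h. With the list form as a term the change was 0.65, so part of this rise cannot be told apart from list form. HOXA7 rose by 0.54 (limma adjusted p = 0.01488) from 61.1 and 57.8 to 68.2 and 81.1 and was called in 1 of 4 fits without 1 list, the fit without WT 1 h replicate 1.

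**Figure D4:**
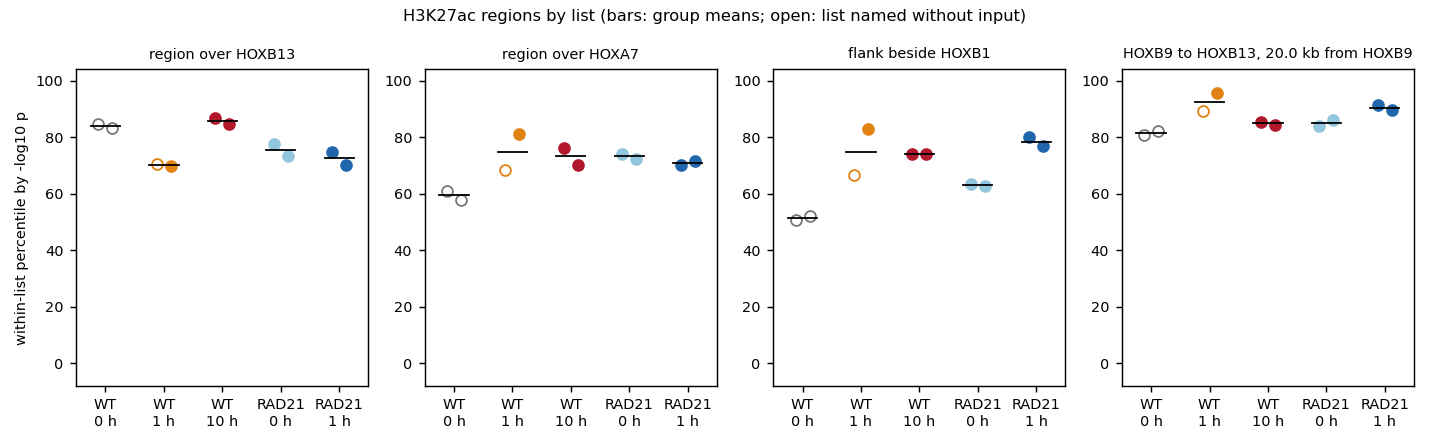
Within-list percentile by -log10 p (y axis) of 4 H3K27ac regions in each of the 10 lists (points, by line and hours of Nutlin-3a; open points are lists whose names lack input; bars are group means of n = 2). HOXB13 is lower at 1 h than at 0 h and 10 h in WT, and the HOXB flank is higher at 1 h than at 0 h in either line.

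In WT at 10 h, 1 of 33 HOX regions was called higher (3.03%) and 5 lower (15.2%), beside 9.7% and 8.56% of all regions, with a median of -0.152 against -0.036. The region near HOXB3 rose by 1.54 (limma adjusted p = 0.002095), to 69.1 and 73.0. The HOTAIR region near HOXC11 and the regions at HOXD8, at HOXD3 and 6615 bp from EVX1 were lower by the test (limma adjusted p = 0.01711 to 0.0319). The EVX1 one lies in the HOXA flank. Of these 5 only the call near HOXB3 held in all 4 fits without 1 list, and the counts over all 33 were 2 without WT 0 h replicate 1, WT 0 h replicate 2 or WT 10 h replicate 1 and 3 without WT 10 h replicate 2. None of the 5 was called with the list form as a term in the fit (limma adjusted p = 0.2375 to 0.6578), so the 10 h changes cannot be told apart from it. The percentiles over all peaks did not fall at each region called lower. From 0 h to 10 h they went from 52.2 and 56.8 to 56.2 and 57.2 at HOXD3. Near EVX1 they went from 52.7 and 58.2 to 59.6 and 58.9, and at HOXD8 from 43.4 and 48.2 to 46.4 and 46.8. Near HOXC11 they went from 55.5 and 53.7 to 38.4 and 54.1.

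In the RAD21 line at 1 h against 0 h, where list form does not differ, 3 of 33 were called higher (9.09%) and 1 lower (3.03%), beside 14.4% and 13.4% of all regions. The median was -0.06 against 0.037. The spread is estimated over all groups, and WT at 1 h holds lists of either form, so the calls are not free of list form. With the list form as a term, 7 HOX regions were called higher and 1 lower, beside 4261 and 3579 of all 18757 regions. The values below are from the fit without that term. The flank region near HOXB1 rose by 0.85 (SE 0.16, adjusted p = 0.001549, limma) and was called in all 4 fits without 1 list. A second region of that flank, chr17:46548040-46551545, rose by 0.69 (limma adjusted p = 0.01709), and lost the call without RAD21 line 0 h replicate 1 or 1 h replicate 1. The region 20.0 kb from HOXB9 toward HOXB13 rose by 0.39 (limma adjusted p = 0.04107) and was called in none of those 4 fits. The region at HOXD3, which also covers the start of HOXD-AS2, fell by 0.68 (limma adjusted p = 0.02526). It was called only without 0 h replicate 1. The count was 4 without RAD21 line 0 h replicate 1, 2 without 0 h replicate 2 or 1 h replicate 2, and 1 without 1 h replicate 1.

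The RAD21 line against WT at 0 h gave 3 of 33 higher and 2 lower, beside 16.8% and 20.7% of all regions. The region near HOXB3 was higher by 1.60, the peak over HOXA9 and HOXA10 by 0.85 and HOXD8 by 0.60 (limma adjusted p = 0.0003386, 0.02502 and 0.03248). HOXB13 was lower (-0.65, limma adjusted p = 0.004984). HOXB13 lost the call without RAD21 line 0 h replicate 2, HOXD8 kept it only without that list, and the HOXA9 and HOXA10 peak lost it in each of the 4 fits that left out 1 list. With the list form as a term none of these 4 kept its call (limma adjusted p = 0.05432 to 0.3972), and the sign at HOXA9 and HOXA10 turned (-0.43). At 1 h, where 1 WT list shares the form of the RAD21 lists, 1 of 33 was called higher and 1 lower, beside 5.68% and 6.15%. The region over HOXA3 and HOXA6 was higher by 0.45 (limma adjusted p = 0.04701, called only without WT 1 h replicate 2), and HOXB9 was lower (-0.48, adjusted p = 0.03713, lost without either RAD21 list at 1 h). No HOX region was called without either of those lists, and 7 and 10 were without WT 1 h replicate 1 and 2.

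The 1 h changes of the lines differed at 2 HOX regions by the test of the difference itself, 1 higher and 1 lower in the RAD21 line, beside 11.7% and 11% of all regions. At HOXA7 the 1 h change in the RAD21 line was lower than that in WT (-0.62, SE 0.21, limma adjusted p = 0.04764). HOXA7 stood at 61.1 and 57.8 at 0 h and 68.2 and 81.1 at 1 h in WT, against 74.0 and 72.4, then 70.0 and 71.7 in the RAD21 line. The call was kept in 1 of 8 fits that left out 1 list, that without WT 1 h replicate 1, the WT 1 h list that shares the form of the WT 0 h lists. It was lost with the list form as a term (limma adjusted p = 0.08054), with the replicate number as a block (0.05942) and over regions called in the compared groups only (0.05646).

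For H3K4me1 the 1 h contrast called 0 of 68 HOX regions higher and 1 lower, beside 0.291% and 0.304% of all regions, and the 10 h contrast called 2 higher and 0 lower, beside 0.615% and 0.0232%. At 1 h the region over HOXB9 was lower (-0.99, SE 0.16, adjusted p = 0.01465, limma), at percentile 97.4 and 97.2 at 0 h, 83.4 and 86.2 at 1 h and 90.5 and 89.2 at 10 h. The 3 groups did not overlap in percentile. The HOXB9 promoter peak of H3K4me1 measured 1.89 and 1.34 kb at 0 h, 4.37 and 3.99 kb at 1 h and 1.28 and 4.0 kb at 10 h. Whether the width of the called peak has a part in the lower rank was not tested. None of the 3 H3K4me1 calls was kept in any of the 4 fits without 1 list, in which the lone list is assumed to vary like the other groups. H3K4me1 unadjusted p-values under 0.05 numbered 7100 and 4555 of 60476 when ranked by fold, with 0 HOX calls at either time.

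The 10 h H3K4me1 calls were neighbours in the interval between HOXB9 and HOXB13, which spans 102.4 kb from start to start and holds PRAC1, a gene expressed in prostate and distal colon. The first, chr17:46755381-46757374, lay 52.7 kb from the HOXB9 start and rose by 0.97 (SE 0.18, adjusted p = 0.01937, limma), from 79.8 and 78.1 at 0 h and 86.8 and 75.7 at 1 h to 94.4 and 96.1 at 10 h. The other, chr17:46758757-46760241, lay 55.8 kb from HOXB9 and rose by 1.46 (SE 0.29, limma adjusted p = 0.02907), from 31.0 and 37.2 at 0 h and 29.7 and 21.3 at 1 h to 74.0 and 76.8 at 10 h. At either region both 10 h lists lay above all 4 others.

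Under the first of them lay an H3K27ac region, chr17:46755920-46756589, called in both WT 10 h lists at percentile 64.1 and 49.9 and in neither WT 0 h list. It was also called, low in the list, in WT 1 h replicate 2 (percentile 10.5) and in RAD21 line 1 h replicate 1 (10.2), and in neither RAD21 list at 0 h. It lay 52.5 kb from HOXB9 and 49.9 kb from HOXB13, inside LINC02086 but in none of its exons. The H3K27ac lists of WT 0 h and 10 h differ in form, and no test was run on this region. The H3K4me1 call over it was kept in no fit without 1 list. The part shared by both WT 10 h H3K27ac peaks is shown from GRCh37, plus strand, with CG in capitals.
between HOXB9 and HOXB13, chr17:46756008-46756266: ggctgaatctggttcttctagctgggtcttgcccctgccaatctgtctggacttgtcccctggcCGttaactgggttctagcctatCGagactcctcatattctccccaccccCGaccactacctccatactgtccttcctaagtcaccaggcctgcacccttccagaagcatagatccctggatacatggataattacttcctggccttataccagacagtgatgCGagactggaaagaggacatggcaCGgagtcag
It held 5 CG and 53.3% G or C. The interval held 9 H3K27ac regions, 1 of them in every list, and 9 H3K4me1 regions, 6 of them in every list.

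**Figure D5:**
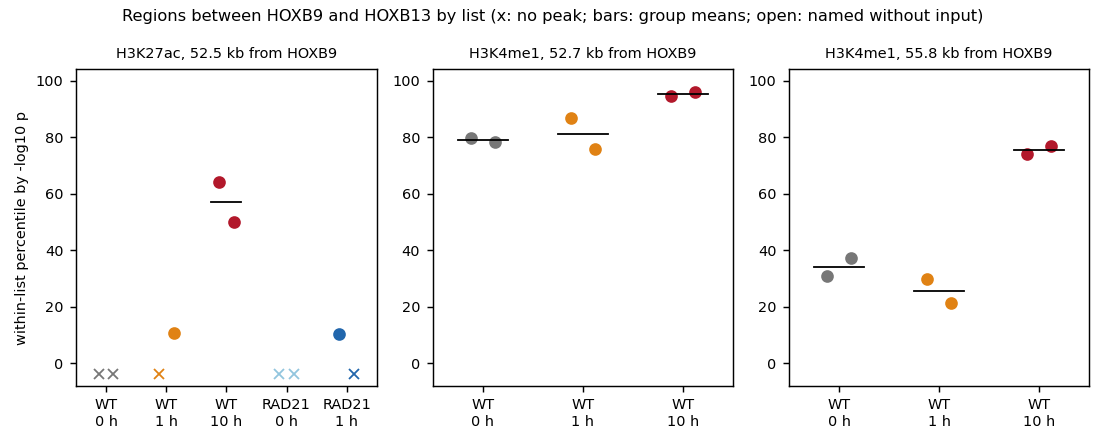
Within-list percentile by -log10 p (y axis) of 3 regions between HOXB9 and HOXB13, by line and hours of Nutlin-3a (points are lists, crosses are lists with no peak, bars are means of groups with a peak in both lists). The 10 h points are the highest of each panel.

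Regions present in both lists of a group and in neither of the comparison group were counted as gained or lost, with no test. In H3K27ac WT at 1 h gained 3 of the 71 HOX regions and lost 1, beside 1.51% and 1.32% of all regions. WT at 10 h gained 7 and lost 3, beside 11.4% and 1.9%. The RAD21 line at 1 h gained 6 and lost 1, beside 4.61% and 2.87%. Against WT, the RAD21 line had 2 gained and 5 lost at 0 h, beside 5.28% and 2.83%, and 4 gained and 0 lost at 1 h, beside 3.23% and 1.15%. H3K4me1 gained 0 and lost 1 of 101 at 1 h, beside 3.3% and 1.75%, and gained 0 and lost 1 at 10 h, beside 2.63% and 2.29%. These counts depend on the threshold and on single lists. With presence at a -log10 q of at least 5, WT at 10 h gained 2 and lost 0, the RAD21 line at 1 h gained 1 and lost 0, and the lines differed by 2 lost at 0 h and 1 gained at 1 h. Without RAD21 line 1 h replicate 2 that line gained 16 at 1 h and had 13 gained against WT, and without its 0 h replicate 1 it lost 5 at 1 h and had 8 gained against WT at 0 h. Without WT 1 h replicate 1, WT at 1 h gained 8. Without WT 0 h replicate 2, WT lost 4 at 1 h and 6 at 10 h, and the RAD21 line had 8 lost at 0 h.

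Of the 7 regions gained in WT at 10 h, 6 lay in HOXB and 1 at HOXA10. They included a region 284 bp from a HOXB3 start, a region 1563 bp from HOXB6, the MIR196A1 promoter region, 2 more regions within 11.1 kb of HOXB9 and the region 52.5 kb from it. None was called in any of the 3 lists without input, and 6 of the 7 were called in 1 to 3 of the 5 other lists with input. The exception was the MIR196A1 region, at 27.9 and 32.1 in the WT 10 h lists and absent from all 8 others. In the RAD21 line after 1 h, 4 of the 6 gained regions lay in flanks, among them regions 40146 and 37395 bp from HOXB1 and 92879 bp from HOXC13, and the others 3739 bp from HOXB8 and at HOXA10.

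p53 binds a pair of decamers, and the canonical HOX promoters were searched for them. The p53 consensus decamer of 10 letters occurred in 9 of 39 HOX windows (23.08%) and 23.35% of all promoters of the same length, on either strand. A full site, a pair of such decamers with at most 13 bases between them, occurred in 0 of 39, against 25 of 19856 (0.1259%). Within 1000 bp around their centres, 0 of 71 HOX H3K27ac regions and 0 of 101 H3K4me1 regions held a full site, against 0.4318% and 0.3386% of the other regions. No match says only that these letters are not in the windows.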

How the data were processed

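H3K27ac and H3K4me1 ChIP-seq of HCT116 cells gave 16 macs2 peak lists, 1 per library, in 8 groups of 2. Another 10 input samples had no list. Per the submitters' processing notes and the methods, the authors trimmed reads with Trim Galore 0.6.6, mapped them to GRCh37 with Bowtie2 2.3.2, filtered them with SAMtools and called peaks with MACS2 2.2.7.1, narrow for H3K27ac and broad for H3K4me1. The deposited fold enrichment is a ratio over the caller's local background, and the deposited -log10 p and -log10 q are the caller's own values. Read counts are not in the lists, so depth is unknown and no counting interval can be given.

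Genes and starts came from GENCODE release 44 lifted to GRCh37. Overlap of 1 bp counted as a call. Peaks of a mark were merged over its lists into regions, and the strongest peak gave a region its value in a list. Within-list ranks by -log10 p were turned into normal scores and fitted with limma 3.58.1 (R 4.3.3, lmFit and eBayes with trend), all groups of a mark in 1 fit, for regions called in every list, and Benjamini-Hochberg adjusted over all regions. The fit was tested on simulated data. Python 3.11.15, pandas 2.3.3, numpy 2.4.6 and matplotlib 3.10.9 were used for the rest. States, gained or lost regions and covered length were counted without a test.

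Values in every list are given for HOX genes whose state differed and for the highest HOX gene of each cluster by mean percentile. Regions are named up to 5 per contrast and direction, smallest p first. The members and lists were chosen with earlier results of these data known. Alternatives were a stricter q, a wider window, an overlap of 200 bp, other start sites (2 choices added after seeing the data), rank by fold, the form of the peak name as a term, another region filter, the replicate number as a block, and leaving out each list. PECAM1 and MIR10A were not matched in the annotation and are not analysed here. Some items are not reported here, although the counts include them. RefSeq promoters were matched for 20 of 39 HOX genes.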

Additional observations from a re-analysis of the deposited data

Results flagged for a closer look

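In the test of the difference between the lines, the 1 h change at HOXA7 differed. The degron line differed from WT by -0.62 in that change (SE 0.21, limma adjusted p = 0.04764), and it was called in 1 of 8 fits that left out 1 list, that without WT 1 h replicate 1, the WT 1 h list that shares the form of the WT 0 h lists. The call was lost with the list form as a term (limma adjusted p = 0.08054), with the replicate number as a block (0.05942) and over regions called in the compared groups only (0.05646).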

How the results depend on the processing

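With canonical starts 15 HOX genes were acetylated in WT at 0 h and 15 at 1 h. Primed genes numbered 1 at 0 h, 5 at 1 h and 5 at 10 h with 2000 bp to each side, 5 at 1 h with an overlap of 200 bp, and 4 at 0 h with basic or canonical starts. With presence at a -log10 q of at least 5, H3K27ac regions lost were 0 in WT at 1 h, 0 at 10 h, 0 for the degron line and 2 between lines at 0 h, gained were 2 in WT at 10 h, 1 for the degron line and 1 between lines at 1 h, and H3K4me1 lost 0 and 0. Covered length was then 34.88 kb (WT 0 h), 73.41 kb (10 h) and 78.2 kb (RAD21 1 h), and 159.3 and 140.4 kb for H3K4me1 at 1 h and 10 h. Ranked by fold, 0 HOX regions were called for the 1 h change of either line, between lines at 1 h, in the difference of changes and for H3K4me1 at either time. With the list form as a term the calls were 3 for WT at 10 h, 8 for the degron line and 7 between lines at 1 h. With regions called in the compared groups only, they were 3, 15 and 7 for WT at 1 h, WT at 10 h and the RAD21 line, 10 and 0 between lines at 0 h and 1 h, and 1 for the difference of changes. The sign turned at HOXA9 and HOXA10 between lines at 0 h (-0.4267 with list form) and at HOXB9 at 1 h (0.1042 by fold). The cause of these moves was not tested.

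Leaving out 1 list, where the lone list is assumed to vary like the other groups, gave 4 to 17 rank calls in WT at 1 h, 2 to 3 at 10 h, 1 to 4 for the degron line, 3 to 5 and 0 to 10 between lines at 0 h and 1 h, 1 to 13 for the difference of changes and 0 for H3K4me1 at either time. Gained and lost were 3 to 8 and 2 to 4 in WT at 1 h, 7 to 8 and 4 to 6 at 10 h, 7 to 16 and 1 to 5 in the RAD21 line, 2 to 8 and 5 to 8 between lines at 0 h, and 4 to 13 and 0 to 4 at 1 h. For H3K4me1 they were 1 to 8 and 2 to 4 at 1 h, and 0 to 4 and 3 to 4 at 10 h. Covered length ran from 35.95 to 37.14, 40.44 to 81.81 and 76.27 to 79.28 kb in WT, 65.59 to 69.1 and 79.45 to 82.42 kb in the RAD21 line, and 152.4 to 173.0, 170.6 to 183.0 and 146.6 to 161.3 kb for H3K4me1. Acetylated genes numbered 23 to 24, primed 2 to 3, 3 to 4 and 2 to 3, and unmarked 12 to 13, 11 to 12 and 12 to 13.

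Same-numbered lists did not deviate together in rank (correlation -0.0501 to 0.0453 over 10 H3K27ac pairs and 0.00084 to 0.00739 over 3 H3K4me1 pairs). This cannot show whether same-numbered libraries were prepared side by side. The replicate numbers used are those in the labels, and the peak names of some lists carry others. With the replicate block, 12 HOX regions were called in WT at 1 h, 6 at 10 h, 4 in the RAD21 line, 5 and 2 between lines, 2 for the difference of changes, where HOXA7 lost its call (limma adjusted p = 0.05942), and 1 and 2 for H3K4me1. Over all alternatives for summary counts and lengths, 180 values kept their call or stayed close, 55 moved, 36 were weaker and 9 stronger. For single regions 111 values lost the call, 2 turned and the rest kept it.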
